A study of Vitis vinifera with 6 samples.

Results

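Proanthocyanidins, the condensed tannins of grapevine, are polymers of flavan-3-ols that are built on a side branch of the flavonoid pathway. Anthocyanidin reductase (ANR) makes epicatechin from anthocyanidins, and leucoanthocyanidin reductase (LAR) makes catechin from leucoanthocyanidins. MYB transcription factors switch these enzyme genes on: MYBPA1 and MYBPA2 act mainly on the proanthocyanidin branch, and MYB5a and MYB5b act on several steps of the wider flavonoid pathway.

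The 7 genes described here are the enzyme genes ANR (VIT_200s0361g00040), LAR1 (VIT_201s0011g02960) and LAR2 (VIT_217s0000g04150) and the regulator genes MYBPA1 (VIT_215s0046g00170), MYBPA2 (VIT_211s0016g01310), MYB5a (VIT_208s0007g07230) and MYB5b (VIT_206s0004g00570). They were chosen by identifier from the 31843 genes of the count table, and all 7 were present and passed the filter on low counts. The pairing of name and identifier was given with the gene list. Symbols of 4 of the 7 genes appear in the RefSeq gene table used here, but that table matched 0 identifiers of the count table, so the pairing was not checked and no positions or sequences are given.

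Ribosome-depleted RNA was sequenced from 3 samples of proliferating embryogenic callus (EC) and 3 samples of young leaf tissue of the cultivar Chardonnay, with 1 library per sample. EC is dedifferentiated tissue that can form somatic embryos. It was raised from anthers on solid medium in the dark and grown for some months, and each sample combined cultures from several Petri dishes. The leaf samples each combined several small young leaves, taken from the vines that had supplied the anthers. EC and leaf samples therefore differed in light and growth conditions as well as in tissue, and these cannot be told apart. Whether the samples of a tissue came from separate cultures or plants is not stated in full, so p-values measure the spread between these samples. The tissue labels could not be set against marker genes, because no table used here names the identifiers.

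The libraries held 22280342 to 24209752 counted reads in EC and 13123072 to 23642329 in leaf. Leaf replicate 3 stood apart from the rest. By the authors' mapping statistics, it had the lowest shares of reads mapped and properly paired on the reference genome used. It had the fewest counted reads, although its sequenced read pairs, as the authors list them, lay within the range of the other libraries. Its 100 features with the most counts took 36.4% of its counted reads, against 16.0% to 18.8% in the other libraries. Across the tested features its log2 levels correlated with those of leaf replicates 1 and 2 at a Pearson's r of 0.829 and 0.815, whereas the other pairs within a tissue had an r of 0.987 to 0.992. The fold change of each gene, the number of genes called and the ratios between genes are therefore also given without it. Because leaf replicate 3 was singled out from these same data, p-values without it do not replace those of all 6 libraries. Levels are given as counts per 1000000 counted reads (CPM), with each library size scaled by its TMM factor (trimmed mean of M-values). They are not divided by gene length, so levels are compared between tissues and not between genes.

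Of the 7 genes, 4 were more highly expressed in leaf tissue (LAR1, LAR2, MYBPA1 and MYB5b), 1 was more highly expressed in EC (MYBPA2), and 2 did not pass the test (ANR and MYB5a). To be called, a gene needed a change of at least 2-fold and an adjusted p under 0.05. The p came from the quasi-likelihood test of edgeR and was adjusted by Benjamini-Hochberg over all 21550 genes and transposable element families tested. By the same rule 25.1% of all tested features were higher in leaf and 17.3% were higher in EC. The median log2 fold change was −3.25 over the 7 genes and −0.04 over all tested features. Without leaf replicate 3, ANR passed as well, which made 5 genes higher in leaf and 1 higher in EC, where 29.4% and 21.6% of features were so called. With all libraries, ANR also passed in DESeq2, the package that the authors used to call genes. In bulk tissue, fewer cells expressing a gene and less RNA per cell cannot be told apart.

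**Figure D1:**
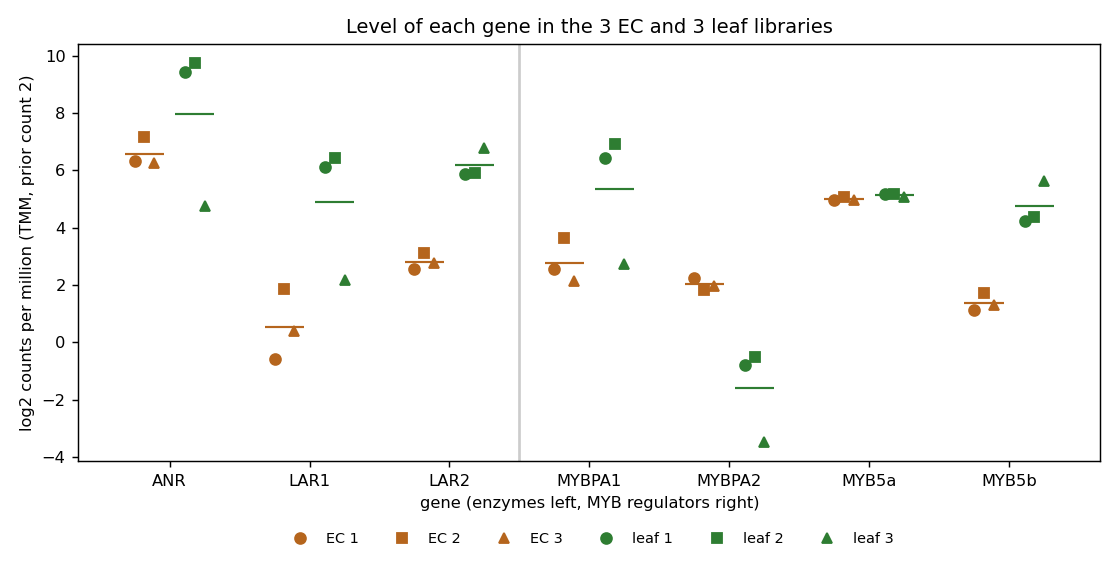
Level of each gene on the log2 scale (vertical axis, CPM with TMM scaling and a prior count of 2) in the 3 EC (brown) and 3 leaf (green) libraries, with marker shapes for replicates 1 to 3 and a line at each tissue mean. In ANR, LAR1 and MYBPA1 the triangle of leaf replicate 3 lies far below the other leaf libraries, in LAR2 and MYB5b it lies above them, and the MYBPA2 point of leaf replicate 3 stands for 0 counts.

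ANR, the enzyme gene of the epicatechin route, had 79.6, 143 and 75.9 CPM in EC replicates 1, 2 and 3, against 687, 856 and 27.2 CPM in leaf replicates 1, 2 and 3. Leaf replicates 1 and 2 were thus above all EC libraries, while leaf replicate 3 was below all of them. The means were 99.4 ± 37.5 CPM in EC and 523 ± 438 CPM in leaf (SD, n = 3 libraries each). The log2 fold change of EC over leaf was −2.40 with a standard error of 1.13 and a 95% interval of −5.21 to 0.41, and its adjusted p of 0.123 did not pass (edgeR). ANR had at least 234 counts in every library. Without leaf replicate 3, ANR was 7.76-fold lower in EC by the ratio of the means of the other libraries, with a log2 fold change of −2.94, a standard error of 0.30 and an adjusted p of 0.000181 (edgeR). With all libraries it also passed in DESeq2 (adjusted p = 0.0343), the package that the authors used to call genes with the same limits. It passed as well in limma-voom with sample weights (adjusted p = 0.000283), an alternative chosen after the data had been seen. It did not pass under the other 12 of the 15 alternatives, among them limma-voom without weights, where the log2 fold change was −1.34 (adjusted p = 0.431).

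LAR1, the first of the LAR genes of the catechin route, had 15, 93 and 35 counts in the EC libraries, which is 0.579, 3.52 and 1.22 CPM. In leaf replicates 1, 2 and 3 it had 1583, 1813 and 38 counts, or 70.0, 85.4 and 4.41 CPM. The tissues did not overlap on this scale, but the lowest leaf library was near the highest EC library, and as RPM, the same measure without TMM scaling, they did overlap (4.17 RPM in EC replicate 2 and 2.90 RPM in leaf replicate 3). LAR1 had the largest change of the 7 genes, with a log2 fold change of −4.91, a standard error of 1.29 and an adjusted p of 0.0229 (edgeR). Its mean level was 1.77 ± 1.55 CPM in EC and 53.3 ± 43.0 CPM in leaf (SD, n = 3 each). Without leaf replicate 3 the log2 fold change was −5.44, with a standard error of 0.50 and an adjusted p of 0.000122. The call was lost when leaf replicate 1, leaf replicate 2, EC replicate 1 or EC replicate 3 was left out, with adjusted p-values of 0.0548, 0.0536, 0.0797 and 0.0892 (edgeR), and in limma-voom (adjusted p = 0.0594).

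LAR2, which encodes the other leucoanthocyanidin reductase, was lower in every EC library than in every leaf library. It had 5.75, 8.52 and 6.67 CPM in the EC replicates, against 58.4, 60.3 and 108 CPM in the leaf replicates. Unlike the preceding pair of genes, it had its highest level in leaf replicate 3. The log2 fold change was −3.44 with a standard error of 0.34 (adjusted p = 0.000998, edgeR), and the ratio of means was 10.8. LAR2 passed under all 15 alternatives, with log2 fold changes between −3.60 and −2.92. Without leaf replicate 3 it was −3.07, with a standard error of 0.15 (adjusted p = 6.37e-06, edgeR).

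Of the 7 genes, 4 had libraries that did not overlap between the tissues in CPM (LAR1, LAR2, MYBPA2 and MYB5b), against 69.6% of all tested features. The share among these genes was thus not above that of the table as a whole. As RPM, LAR1 overlapped and MYB5a did not, and the share of all tested features is not given on that scale.

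**Figure D2:**
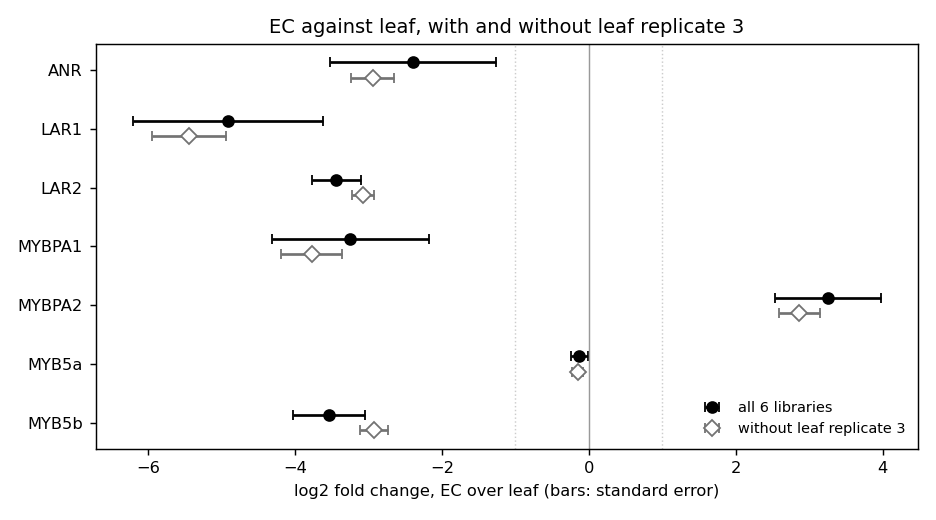
Log2 fold change of EC over leaf (horizontal axis) for each gene with all 6 libraries (black circles) and without leaf replicate 3 (grey diamonds), with bars for the standard error of the edgeR fit and dotted lines at a 2-fold change. The bars of ANR, LAR1 and MYBPA1 were long with all libraries (standard errors of 1.13, 1.29 and 1.07) and shorter without leaf replicate 3 (0.30, 0.50 and 0.41), and MYBPA2 is the gene on the right.

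MYBPA1, an activator of ANR and LAR genes in grapevine, had 5.83, 12.2 and 4.27 CPM in the EC libraries and 85.8, 119 and 6.50 CPM in the leaf libraries. As with ANR, leaf replicates 1 and 2 were far above EC, but leaf replicate 3 lay within the EC range. The log2 fold change was −3.25 with a standard error of 1.07, and the adjusted p of 0.0461 was just under the threshold (edgeR). The call was lost with library sizes alone (adjusted p = 0.0692), in limma-voom (0.103), and when any single library other than leaf replicate 3 was left out. In those fits EC replicates 1, 2 and 3 and leaf replicates 1 and 2 gave adjusted p-values of 0.142, 0.0861, 0.142, 0.0981 and 0.110 (edgeR). Without leaf replicate 3, MYBPA1 was 13.8-fold lower in EC by the ratio of the means of the other libraries, with a log2 fold change of −3.77, a standard error of 0.41 and an adjusted p of 0.000258 (edgeR).

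MYBPA2, a second activator of the proanthocyanidin branch, was the gene that rose in EC. It had 121, 92 and 110 counts in the EC libraries, against 11, 13 and 0 counts in the leaf libraries. All EC libraries therefore lay above all leaf libraries, at 3.48 to 4.67 CPM in EC and at most 0.613 CPM in leaf. The count of 0 in leaf replicate 3 allows a level of up to 0.348 CPM, the value of 3 counts there. The log2 fold change was 3.26 with a standard error of 0.72 (adjusted p = 0.0129, edgeR), and 95.4% of tested features had a lower fold change. Without leaf replicate 3 it was 2.87 with a standard error of 0.28 (adjusted p = 0.000111). The call was lost without EC replicate 1, 2 or 3, at adjusted p-values of 0.0569, 0.0501 and 0.0533 (edgeR), with log2 fold changes of 3.19 to 3.41.

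MYB5a, a MYB regulator of the wider flavonoid pathway, was the steadiest of the 7 genes. It had 31.4, 33.7 and 31.1 CPM in the EC libraries and 36.1, 35.9 and 33.2 CPM in the leaf libraries, leaf replicate 3 included. Its log2 fold change was −0.13 with a standard error of 0.12 and a 95% interval of −0.42 to 0.16 (adjusted p = 0.391, edgeR). The interval leaves out a 2-fold change in either direction. The log2 fold change was −0.15 without leaf replicate 3, with a standard error of 0.07 (adjusted p = 0.0981, edgeR). The sign turned with library sizes alone, where the log2 fold change was 0.30 (adjusted p = 0.290, edgeR). That scaling moved the median of all tested features to 0.41, against −0.04 with TMM scaling.

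MYB5b, the other MYB5 gene, fell in EC. Its levels were 2.08, 3.18 and 2.36 CPM in the EC libraries, against 18.5, 20.6 and 49.7 CPM in the leaf libraries. The tissues did not overlap, and, as with LAR2, leaf replicate 3 had the highest level. The log2 fold change was −3.53 with a standard error of 0.49 (adjusted p = 0.00265, edgeR), and the ratio of means was 11.6. MYB5b passed under all 15 alternatives, with log2 fold changes between −3.79 and −2.93. The last of these was the value without leaf replicate 3 (standard error 0.19, adjusted p = 1.92e-05, edgeR).

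The ratio of the counts of 2 genes within a library was also compared between tissues. For every pair it restates the levels above and is no separate evidence of them. This ratio does not depend on the scaling of the library, and its difference between tissues does not depend on gene length. The 4 ratios were compared by exact permutation of the 6 libraries (two-sided), in which 3 against 3 cannot give a p below 0.1, so none could pass.

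For the MYBPA genes, MYBPA2 took 44.5%, 22.2% and 47.2% of the reads of the pair in EC replicates 1, 2 and 3, against 0.564%, 0.510% and 0% in the leaf replicates. The leaf share of 0% rests on 56 reads and allows up to 6.42% (95% Wilson interval). The log2 ratio of MYBPA2 over MYBPA1 was −0.76 ± 0.91 in EC and −7.26 ± 0.39 in leaf (SD, n = 3 each), a difference of 6.50 (exact permutation p = 0.1, adjusted p = 0.133 over the 4 ratios). All EC libraries lay above all leaf libraries, and the difference was 6.71 without leaf replicate 3. The leaf mean includes leaf replicate 3, where the ratio was set by the pseudocount of 0.5.

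For the MYB5 genes, MYB5b took 6.23%, 8.62% and 7.05% of the reads of the pair in the EC libraries, against 33.9%, 36.5% and 59.9% in the leaf libraries. The log2 ratio of MYB5b over MYB5a was −3.67 ± 0.25 in EC and −0.39 ± 0.85 in leaf (SD, n = 3 each). The difference of −3.28 separated all libraries (exact permutation p = 0.1, adjusted p = 0.133) and was −2.79 without leaf replicate 3.

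The LAR pair gave no such separation. LAR2 took 90.9%, 70.8% and 84.6% of the LAR reads in the EC libraries, against 45.5%, 41.4% and 96.1% in leaf replicates 1, 2 and 3. In leaf replicates 1 and 2 LAR1 thus had the larger number of reads, and in the other libraries LAR2 did. The log2 ratio of LAR2 over LAR1 differed by 1.05 (exact permutation p = 0.6, adjusted p = 0.6). It rested on single libraries: the difference was 2.71 without leaf replicate 3, 0.28 without leaf replicate 1, 0.16 without leaf replicate 2, 0.58 without EC replicate 1 and 1.58 without EC replicate 2.

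For the enzymes of both routes, 12.6, 11.9 and 9.63 reads of ANR were counted per LAR read in the EC libraries. In leaf there were 5.35 and 5.87 in replicates 1 and 2, and 0.241 in replicate 3. The log2 ratio of ANR over the sum of LAR1 and LAR2 was 3.49 ± 0.20 in EC and 0.97 ± 2.62 in leaf (SD, n = 3 each), a difference of 2.52 that separated all libraries (exact permutation p = 0.1, adjusted p = 0.133). The size depended on leaf replicate 3, without which the difference was 1.01.

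**Figure D3:**
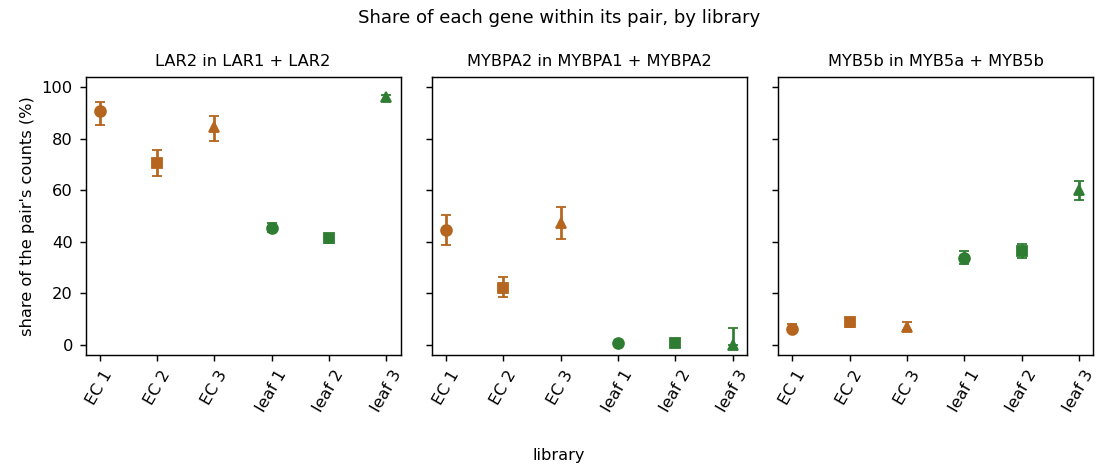
Share of the counts of a gene pair taken by LAR2, MYBPA2 and MYB5b (vertical axes, percent) in each EC (brown) and leaf (green) library, with 95% Wilson intervals that cover counting error only. MYBPA2 reached 22.2% to 47.2% in EC and stayed at or under 0.564% in leaf, MYB5b stood at 6.23% to 8.62% in EC and 33.9% to 59.9% in leaf, and the LAR2 share of leaf replicate 3, at 96.1%, lay above those of all EC libraries (70.8% to 90.9%).

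Within the leaf tissue, the 7 genes fell into 3 patterns in leaf replicate 3. ANR, LAR1 and MYBPA1 were 28.4-fold, 17.6-fold and 15.8-fold lower there than the mean of leaf replicates 1 and 2. On the log2 scale with a prior count of 2 these deviations were −4.81, −4.10 and −3.94, and only 1.15%, 2.09% and 2.39% of all tested features deviated further down. MYBPA2 had 0 counts there, at least 1.58-fold lower than in the other leaf libraries when set against 3 counts. MYB5a was nearly level, at 0.923 of their mean. LAR2 and MYB5b were 1.82-fold and 2.54-fold higher in leaf replicate 3, and 21.6% and 13.5% of features deviated further up. These folds depend on the TMM factor of leaf replicate 3 (0.658). As RPM, without that scaling, MYB5a had 34.5, 34.7 and 21.8 in leaf replicates 1, 2 and 3, and so was lower in replicate 3. LAR2 had 55.9, 58.4 and 71.1 RPM and MYB5b 17.7, 20.0 and 32.6 RPM, still highest in replicate 3 but by less. For all tested features the quartiles of the deviation were −0.81 and 0.72. These are values of 1 library and carry no test. The part that the low number of counted reads in this library and its 36.4% of reads on 100 features had in them was not tested.

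**Figure D4:**
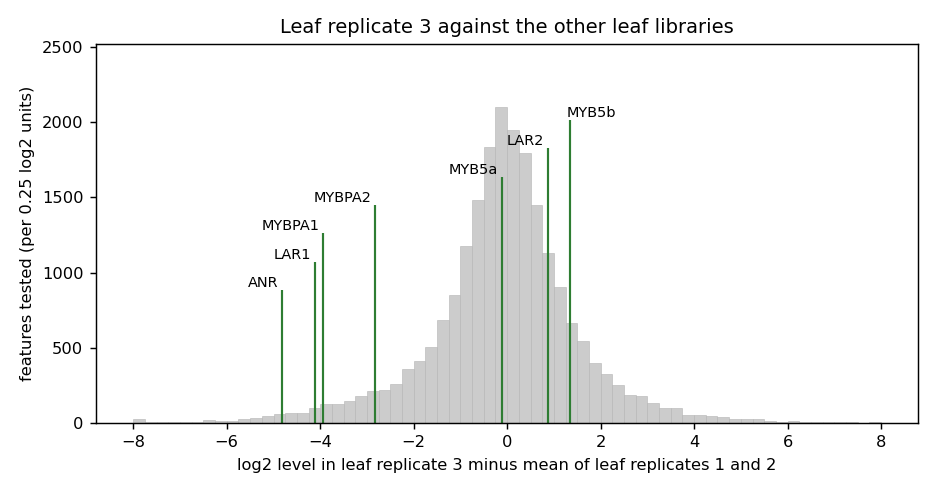
Distribution over all 21550 tested features (grey bars, number per bin) of the log2 level in leaf replicate 3 minus the mean of leaf replicates 1 and 2, with values beyond the axis gathered in its end bins and green lines at the 7 genes. ANR, LAR1 and MYBPA1 lie in the lower tail, at −4.81, −4.10 and −3.94, MYB5a lies near the centre, and LAR2 and MYB5b lie to the right at 0.87 and 1.34.

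ANR, LAR1 and MYBPA1 also varied most among the EC libraries. The highest EC library was 6.08 times the lowest for LAR1, 2.86 times for MYBPA1 and 1.88 times for ANR. For MYB5b, LAR2, MYBPA2 and MYB5a this ratio was 1.53, 1.48, 1.34 and 1.08. EC replicate 2 had the highest level of 6 of the genes and the lowest level of MYBPA2. LAR1 and MYBPA1 were 3.92-fold and 2.42-fold higher in EC replicate 2 than the mean of the other EC libraries, while MYBPA2 was at 0.821 of that mean. Of all tested features, 99.9% and 99.0% had a lower deviation in EC replicate 2 than LAR1 and MYBPA1.

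The order of the libraries grouped the genes in part. ANR, LAR1 and MYBPA1 were highest in leaf replicate 2, then in leaf replicate 1, but leaf replicate 3 came last of the 6 libraries for ANR, above all EC libraries for LAR1 and between EC replicates 2 and 1 for MYBPA1. Among the EC libraries, replicate 1 was above replicate 3 for ANR, MYBPA1, MYBPA2 and MYB5a, and below it for LAR1, LAR2 and MYB5b. LAR2 and MYB5b shared an order over all 6 libraries, with leaf replicates 3, 2 and 1 above EC replicates 2, 3 and 1. The order of leaf replicates 1 and 2 for LAR2 rests on 58.4 and 60.3 CPM, which is a smaller gap than the spread between replicates.

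Among the 21335 other genes tested, the one whose log2 level was most like that of MYBPA1 over the 6 libraries was VIT_215s0046g01570 (Pearson's r = 0.997). It had 21, 53 and 23 counts in the EC libraries and 253, 377 and 10 counts in the leaf libraries. The gene most like ANR was VIT_206s0004g02620 (r = 0.998), with 1021, 2780 and 1101 counts in EC and 13195, 15135 and 100 in leaf. Both showed the high leaf replicates 1 and 2 and the low leaf replicate 3. The 6 libraries fall into 2 tissues and leaf replicate 3 stands apart, so r describes these libraries only and carries no test. Neither identifier has a name in the tables used here.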

How the data were processed

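The authors trimmed read pairs from stranded, ribosome-depleted libraries, removed tRNA and rRNA reads, and aligned what remained with HISAT2 to PN40024 12X, allowing several positions per read. They counted genes of the V2.1 annotation and transposable element families with TEtranscripts and deposited raw counts without normalisation. Before their own tests the authors removed counts of genes that resembled chloroplast genes. Here features were removed only by the filter on low counts. Whether counting used strand, and how reads shared by similar genes were divided, is not given in the sources used here. The table had 0 columns of other samples.

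Counts were tested in edgeR 4.0.16 (R 4.3.3) with filterByExpr (minimum count 10, minimum total 15), TMM factors (1.15, 1.19 and 1.19 for EC replicates 1 to 3; 0.961, 0.974 and 0.658 for leaf), robust glmQLFit and glmQLFTest over all 21550 features. The code was tested on simulated data. Standard errors were the size of the log2 fold change over the square root of F. A count of 3 equals 0.104 to 0.116 CPM in EC and 0.133 to 0.348 in leaf. Wilson intervals (scipy 1.17.1) and these floors cover counting error only. Ratios used a pseudocount of 0.5. Alternatives used DESeq2 1.42.0, limma 3.58.1, other scalings and filters, a replicate block and each library left out. Figures were drawn with matplotlib 3.10.9.

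The rule for named genes took the 7 genes and the gene most like MYBPA1 and ANR each. The genes and lists were chosen with earlier results of these data known. A list of other flavonoid genes was not used here, because no reference table annotates their identifiers.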

Additional observations from a re-analysis of the deposited data

How the results depend on the processing

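The 15 alternatives left LAR2 and MYB5b past the threshold in every case, and the direction of each gene other than MYB5a was kept. The number of genes higher in leaf was 2 with limma-voom, and 2 to 5 with each library left out in turn. The number higher in EC was 0 when 10 counts were required in every library, where MYBPA2 was not tested, and 0 to 1 with each library left out. Under library sizes alone the log2 fold change of MYB5a was 0.30. An adjusted p alone, without the 2-fold limit, changed neither number. The deviations of same-numbered EC and leaf libraries had correlations of −0.01, 0.10 and 0.10. These values cannot settle whether the numbers pair the samples, because paired samples with little shared variation would give the same. With the replicate block 2 genes were higher in leaf and 1 in EC, LAR1 (adjusted p = 0.0521) and MYBPA1 (adjusted p = 0.0665) no longer passing in edgeR, and ANR had a log2 fold change of −1.63 (adjusted p = 0.343). The cause of these losses was not tested. Among the 7 genes, MYBPA2 in leaf had the counts nearest the floor, with 11, 13 and 0. LAR1 in EC replicate 1 was also low, at 15 counts (0.579 CPM).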
